A study of Homo sapiens with 10 samples.

Results

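RNA sequencing of A253 cells was used here to follow 9 genes of the NRF2 antioxidant pathway in cells with a deletion in DUSP1. The genes are NFE2L2, which encodes NRF2 itself, and 8 genes commonly used as readouts of its activity, NQO1, GCLC, GCLM, TXNRD1, SRXN1, HMOX1, AKR1B10 and AKR1C1. They were taken by gene symbol from a deposited table of 58735 genes, in which each of the 9 symbols had 1 row. A253 is a human line derived from a squamous cell carcinoma of the salivary gland. The control cells carried a guide RNA against dTomato. Cl1 and Cl10 are single-cell clones in which the guides flanked exon 2 of DUSP1, a phosphatase that acts on MAP kinases. The labels call both clones knock-outs, whereas the study describes the deletion as heterozygous (DUSP1-/+). By the study's account neither clone showed DUSP1 protein, and both were chosen for that reason. The counts below measure mRNA only. All 3 groups carried a lentiviral guide vector and constitutive Cas9, and all were selected with puromycin and blasticidin. Each group had 2 libraries, and each clone is a single clone, so that what separates a clone from the control cannot be told apart from what separates any clone from the population it came from. Nothing in the labels says that the 2 libraries of a group came from separate cultures, so the p-values below measure only the spread between these libraries, which may be technical.

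NRF2 is a transcription factor of the cap'n'collar family. In unstressed cells KEAP1 holds it in the cytoplasm and hands it to the CUL3 ubiquitin ligase for degradation, and oxidants or electrophiles modify KEAP1 and let NRF2 escape. Stabilised NRF2 enters the nucleus, pairs with a small MAF protein and binds antioxidant response elements, where BACH1 can compete with it as a repressor. Because this control acts on the protein, the mRNA of NFE2L2 is not by itself a measure of NRF2 activity. The targets make glutathione, keep thioredoxin and peroxiredoxins reduced, break down heme and detoxify quinones and aldehydes. In squamous carcinomas the pathway is known for its frequent activation.

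A pair of these promoters are shown because the genes behind them, TXNRD1 and GCLM, had lower counts in at least 1 clone and because their windows hold an antioxidant response element. The motif searched was TGACNNNGC, on both strands, in the 250 bases before each RefSeq start site (GRCh38.p14). RefSeq windows were found for 7 of the 9 genes, 9 windows in all, and 3 windows of 2 genes held a match. Among all 35116 windows of that length the share with a match was 10.9%. HMOX1 and AKR1B10 had no window in the table. Capitals mark the match, which lies on the plus strand of the gene in the first TXNRD1 window (chr12:104215529-104215778, plus strand), 99 bases before the start site, and on the opposite strand in GCLM (chr1:93909431-93909680, minus strand), 34 bases before the start site.
TXNRD1 first promoter: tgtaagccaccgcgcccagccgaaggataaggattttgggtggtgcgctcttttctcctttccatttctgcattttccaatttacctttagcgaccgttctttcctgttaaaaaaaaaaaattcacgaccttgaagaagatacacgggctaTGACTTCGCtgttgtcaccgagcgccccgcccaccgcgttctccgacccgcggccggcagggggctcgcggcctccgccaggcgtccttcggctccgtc
GCLM promoter: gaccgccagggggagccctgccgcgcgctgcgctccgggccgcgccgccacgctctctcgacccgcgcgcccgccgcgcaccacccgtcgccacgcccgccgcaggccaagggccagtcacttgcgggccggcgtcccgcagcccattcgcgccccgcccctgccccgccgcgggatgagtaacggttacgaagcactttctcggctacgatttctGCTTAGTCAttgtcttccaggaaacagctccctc
A second TXNRD1 start site lies inside the gene, and the match in its window is shown as a site of 29 bases only (chr12:104286920-104286948, plus strand of the chromosome, match on the opposite strand).
TXNRD1 second promoter, site: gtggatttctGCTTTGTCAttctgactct
The AP-1 motif TGANTCA, which resembles the core of the antioxidant response element and may overlap it, was in none of the 9 windows and in 6.57% of all windows. These matches describe letters in a window and say nothing of binding in A253 cells. Bases outside the windows were not searched, so a gene without a match here may still have an element elsewhere.

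Library totals lay between 47016495 and 70986593 counts, and HMOX1, the member with the fewest, still had at least 457 counts in every library. Normalised counts below use TMM factors and refer to a library of mean size. Within a group the libraries differed by more than counting noise, most in the control, where 58.5% of 15278 genes had an unadjusted p under 0.05 in a chi-square test. The share was 47.3% of 15213 genes in Cl1 and 23.6% of 14925 in Cl10. A fit of Cl10 against a single control takes its spread from the less variable Cl10 pair, so its p-values are probably too small. DUSP1 had 744.8 and 635.7 normalised counts in the control, 304.1 and 353.9 in Cl1, and 495.4 and 415.4 in Cl10. All 4 clone libraries were thus below both controls (log2 fold changes -1.07 and -0.59, adjusted p = 0.000292 and 0.0113 by edgeR's quasi-likelihood test), although without Cl10 replicate 2 the second was -0.48 with an adjusted p of 0.0794. The 8 epithelial markers, with keratins, EPCAM, CDH1, TP63 and SOX2, had at least 1438 normalised counts in every library, and both leukocyte markers, PTPRC and CD3E, had at most 12. The epithelial markers were not even across groups by edgeR's quasi-likelihood test. SOX2 was below the control in Cl1 and Cl10 (log2 fold changes -0.515 and -1.73, adjusted p = 0.00464 and 4.47e-05). In Cl10 KRT8 and KRT18 were also lower (-1.33 and -0.85, adjusted p = 0.000161 and 0.00185). CDH1 was higher in Cl1 and Cl10 (0.84 and 0.35, adjusted p = 0.000733 and 0.026). KRT5, KRT14, EPCAM and TP63 passed against the control in neither clone. The 3 fibroblast markers, nearly all COL1A1, summed to 1569–1853 in control and Cl1 and to 1068–1079 in Cl10. Of the 2 endothelial markers PECAM1 had at most 2 counts in a library, and VWF had 246.3 and 151.7 normalised counts in the control, 320.3 and 444.1 in Cl1 and 196.6 and 167.6 in Cl10. VWF was higher in Cl1 than in the control (log2 fold change 0.93, adjusted p = 0.0102) and lower in Cl10 than in Cl1 (-1.05, adjusted p = 0.000247). The part of the epithelial, fibroblast and endothelial marker differences in the results below was not tested.

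The first question was how the pathway stood in each clone against the control. AKR1B10 was the member that moved most, to more than 3 times the control level in both clones. GCLC and TXNRD1 fell in both clones, GCLM fell in Cl1 and AKR1C1 rose in Cl10. NFE2L2, NQO1, SRXN1 and HMOX1 passed the test in neither clone. In Cl1, 1 of the 9 genes rose and 3 fell at an adjusted p under 0.05, where 12.4% of all 20153 genes tested rose and 12.8% fell. In Cl10, 2 rose and 2 fell, against a background of 20.6% and 21.8% of 19875 genes. The median log2 fold change over the members was -0.07 in Cl1 and -0.13 in Cl10, and that over all genes tested was -0.01 in both. In either direction 4 of the 9 members passed in each clone, beside 25.1% of all genes in Cl1 and 42.5% in Cl10, so that the count in Cl10 is near the background. Both comparisons used the same 2 control libraries and are not independent of each other. An absolute log2 fold change above 1 was reached by AKR1B10 alone in each clone, beside 4.27% of genes upwards and 3.27% downwards in Cl1 and 5.98% and 7.44% in Cl10. Both libraries lay beyond both controls for 1 member upwards and 4 downwards in Cl1, beside 30.6% and 33% of all genes, and for 2 upwards and 5 downwards in Cl10, beside 36.2% and 37.6%. In these bulk libraries, fewer cells that express a gene and less RNA per cell cannot be told apart.

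**Figure D1:**
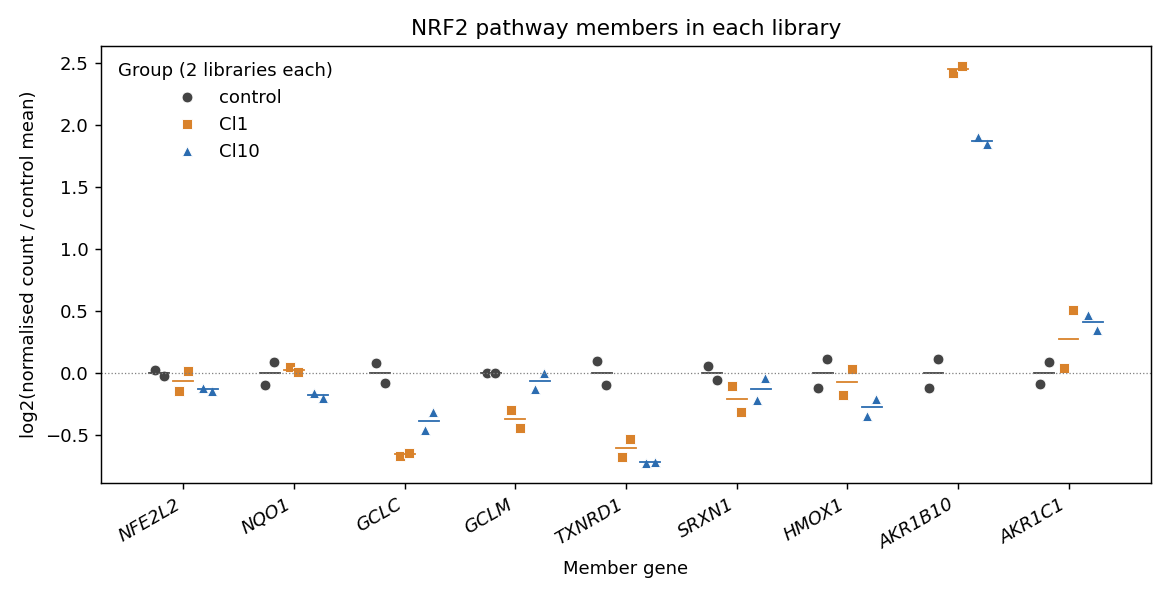
Each point is 1 library, as the log2 ratio of its normalised count to the mean of the 2 control libraries, with short lines at group means, for the 9 genes on the horizontal axis. AKR1B10 stands far above the control in both clones, with values in Cl1 above those in Cl10, and GCLC and TXNRD1 lie below the control in all 4 clone libraries.

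NFE2L2 (ENSG00000116044, chr2:177218667-177392756, minus strand of hg38) encodes the transcription factor. It had 7790 and 7546 normalised counts in the control, 6934 and 7740 in Cl1, and 7063 and 6930 in Cl10. The Cl1 libraries overlapped the control, and both Cl10 libraries lay just below it. Against the control the difference on the log2 scale was -0.06 for Cl1 (standard error 0.116, 95% interval -0.31 to 0.19, adjusted p = 0.743) and -0.13 for Cl10 (standard error 0.0777, 95% interval -0.31 to 0.06, adjusted p = 0.226), both by edgeR's quasi-likelihood test. The Cl10 difference passed without control replicate 1 or 2, in fits where the lone control library was assumed to vary like the Cl10 pair, which then gives all of the spread between libraries (log2 fold change -0.11 and -0.16, adjusted p = 0.0291 and 0.0016). The same limit holds for every p-value from a fit without 1 library, in which the complete pair gives the spread. Without Cl1 replicate 1 the Cl1 value was 0.02. Exons of NFE2L2 overlap those of HNRNPA3 on the opposite strand over 3509 of 14975 exonic bases. HNRNPA3 had between 21048 and 32177 counts in a library, and whether its reads could enter the NFE2L2 count depends on a strand setting not given in the sources used here.

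Of the 2 subunits of the enzyme that starts glutathione synthesis, GCLC fell in both clones and GCLM in Cl1. GCLC (ENSG00000001084, chr6:53497341-53616970, minus strand) encodes the catalytic subunit of glutamate-cysteine ligase, the first and rate-limiting enzyme of glutathione synthesis. It had 1714 and 1533 normalised counts in the control, 1019 and 1038 in Cl1, and 1180 and 1306 in Cl10. The 3 groups did not overlap, with Cl1 lowest and Cl10 between. The difference from the control came to -0.66 on the log2 scale for Cl1 (standard error 0.114, adjusted p = 0.00136) and to -0.38 for Cl10 (standard error 0.099, adjusted p = 0.0196) by edgeR's quasi-likelihood test. The level fell by 36.6% in Cl1 and fell by 23.3% in Cl10. Without Cl10 replicate 1 or 2 the Cl10 value was -0.30 and -0.46, and it did not pass. In those fits the more variable control pair gave all of the spread between libraries.

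GCLM (ENSG00000023909, chr1:93885199-93909456, minus strand), the modifier subunit that makes the ligase efficient, passed the test in Cl1 and not in Cl10. Its libraries read 1887 and 1881 normalised counts in the control, 1530 and 1384 in Cl1, and 1726 and 1886 in Cl10. Both Cl1 libraries lay below all the others, and Cl10 overlapped the control. In Cl1 it fell by 22.5% (log2 fold change -0.37, standard error 0.11, adjusted p = 0.0279). Without Cl1 replicate 1 or 2 the Cl1 value was -0.44 and -0.29 and did not pass, with the spread taken from the control pair alone. In Cl10 the value was -0.06 (95% interval -0.25 to 0.14, adjusted p = 0.618), and it was 0.01 without Cl10 replicate 1. The 50 nearest genes had a median of 0.21 there, and set against it GCLM was lower (-0.27, adjusted p = 0.0405). Here and in every other test against neighbours the median was given no error of its own, so such p-values may be too small.

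TXNRD1 (ENSG00000198431, chr12:104215779-104350307, plus strand), the cytosolic selenoenzyme that uses NADPH to reduce thioredoxin, had the most counts of the 9 genes in the control. It read 24606 and 21471 normalised counts in the control, 14417 and 15907 in Cl1, and 13921 and 14010 in Cl10. Every clone library was below every control library, and the clones lay close to each other. Cl1 differed from the control by -0.60 on the log2 scale (standard error 0.13, adjusted p = 0.0052) and Cl10 by -0.72 (standard error 0.0961, adjusted p = 0.00136) by edgeR's quasi-likelihood test. The level fell by 34.1% in Cl1 and fell by 39.2% in Cl10. Without Cl1 replicate 1 the Cl1 value was -0.53 (adjusted p = 0.119). The 50 nearest genes tested on chromosome 12 had median log2 fold changes of -0.26 (Cl1) and -0.06 (Cl10). With that median subtracted the Cl1 value was -0.34 (adjusted p = 0.0779), whereas the Cl10 value was -0.66 (adjusted p = 0.00236).

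SRXN1 (ENSG00000271303, chr20:646615-653200, minus strand), sulfiredoxin, which returns over-oxidised peroxiredoxins to work, had 1347 and 1245 normalised counts in the control, 1205 and 1042 in Cl1, and 1117 and 1261 in Cl10. The Cl1 libraries were below the control by less than the test could separate (log2 fold change -0.20, 95% interval -0.46 to 0.06, adjusted p = 0.247), and Cl10 overlapped it (-0.12, 95% interval -0.36 to 0.11, adjusted p = 0.361). Without control replicate 2 the Cl10 value was -0.18 with an adjusted p of 0.0271. Another gene model on the same strand (ENSG00000270299) shares 2292 of its 2528 exonic bases but held at most 28 counts in a library.

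The reporters of quinone and heme metabolism did not pass the test against the control in either clone. NQO1 (ENSG00000181019, chr16:69706996-69726668, minus strand), the quinone reductase that is the standard reporter of NRF2 activity, had 12920 and 14651 normalised counts in the control, 14250 and 13831 in Cl1, and 12350 and 11994 in Cl10. Cl1 lay within the span of the control, and Cl10 lay just below it. On the log2 scale Cl1 differed from the control by 0.03 (95% interval -0.24 to 0.29, adjusted p = 0.891), with the opposite sign when scaled by library size (-0.04) or set against its neighbours (-0.07), and Cl10 by -0.17 (95% interval -0.39 to 0.04, adjusted p = 0.169). Control replicate 1 decided the Cl10 call, as the value without it was -0.27 (adjusted p = 5.52e-09), a fit in which the lone control was assumed to vary like the Cl10 pair. Set against the median of its neighbours the Cl10 value also passed (-0.32, adjusted p = 0.0305). Without control replicate 1 the Cl1 value was -0.06.

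HMOX1 (ENSG00000100292, chr22:35380361-35394214, plus strand) encodes heme oxygenase 1, which opens the heme ring and is also a target of BACH1 repression. It was the least counted member, with 581.4 and 684.1 normalised counts in the control, 560.4 and 646.9 in Cl1, and 497.4 and 547 in Cl10. The Cl1 libraries overlapped the control and the Cl10 libraries lay below it. Differences from the control were -0.07 on the log2 scale for Cl1 (95% interval -0.37 to 0.24, adjusted p = 0.776) and -0.27 for Cl10 (95% interval -0.56 to 0.02, adjusted p = 0.117). The 50 genes tested nearest to it on chromosome 22 had a median of -0.60 in Cl10, so that HMOX1 lay above its neighbours there by 0.33 (adjusted p = 0.0688). Without control replicate 1 the Cl10 value was -0.40 (adjusted p = 0.00058), with the spread taken from the Cl10 pair alone, and the Cl1 value was 0.06 without control replicate 2 and 0.04 without Cl1 replicate 1.

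Of the 2 aldo-keto reductases among the 9 genes, NADPH-dependent enzymes that reduce aldehydes, ketones and steroids, AKR1B10 rose in both clones and AKR1C1 in Cl10. AKR1B10 (ENSG00000198074, chr7:134527567-134541412, plus strand), which reduces retinal and lipid aldehydes and is often high in squamous and liver carcinomas, had 2482 and 2914 normalised counts in the control. It had 14458 and 15025 in Cl1 and 10063 and 9686 in Cl10. The 3 groups were fully apart, with the lowest clone library above 3 times the highest control. In Cl1 this was a 5.47-fold rise (log2 fold change 2.45, standard error 0.129, adjusted p = 1.53e-07) and in Cl10 a 3.67-fold rise (1.88, standard error 0.102, adjusted p = 5.97e-05), by edgeR's quasi-likelihood test. It passed the test in every alternative tried and without any single library, with log2 fold changes between 2.34 and 2.57 in Cl1 and between 1.76 and 1.99 in Cl10 when 1 library was left out. Its 50 nearest genes tested on chromosome 7 had medians of 0.09 and 0.07.

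AKR1C1 (ENSG00000187134, chr10:4963253-4983283, plus strand), which inactivates progesterone and reduces other ketosteroids, had 10314 and 11626 normalised counts in the control, 11286 and 15564 in Cl1, and 15143 and 13962 in Cl10. The Cl1 libraries differed from each other by 31.9% of their mean, and 1 of them lay within the control. Both Cl10 libraries lay above both controls. Relative to the control, Cl1 was at 0.29 on the log2 scale (95% interval -0.04 to 0.62, adjusted p = 0.182) and Cl10 at 0.41 (standard error 0.0954, adjusted p = 0.0126) by edgeR's quasi-likelihood test, a rise of 33.1% in Cl10. The Cl10 call did not hold without Cl10 replicate 1 (0.36, adjusted p = 0.212) or without Cl10 replicate 2 (0.47, adjusted p = 0.0954). Without control replicate 2 the Cl1 value was 0.38 and passed the test (adjusted p = 0.00728).

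**Figure D2:**
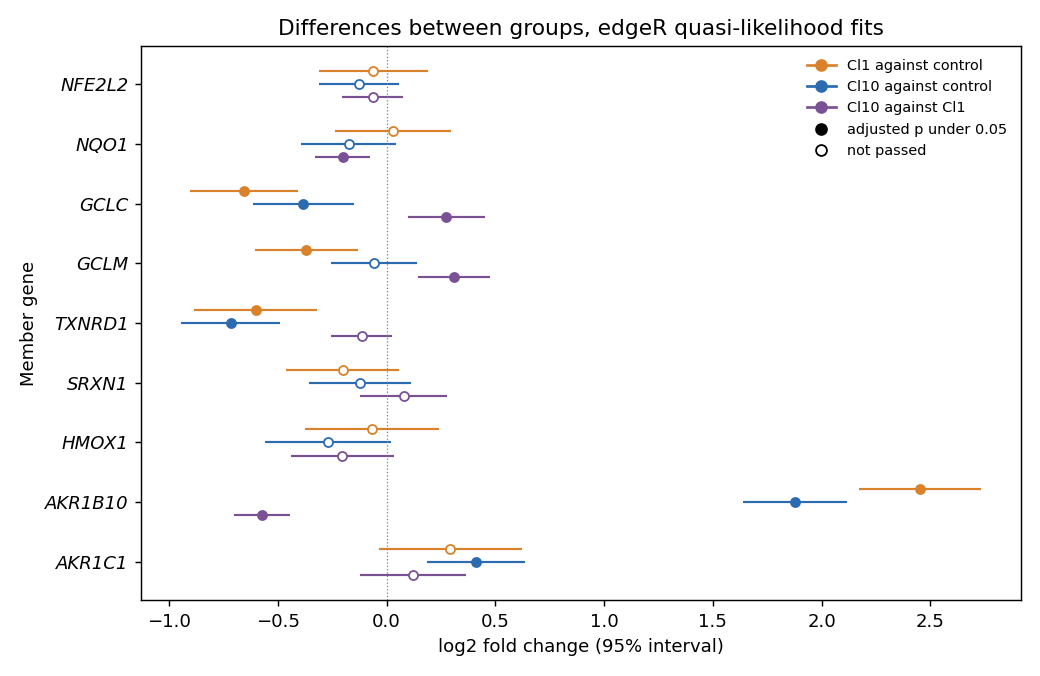
Points are log2 fold changes from edgeR's quasi-likelihood fits with their 95% intervals, for each of the 9 genes and for Cl1 against control, Cl10 against control and Cl10 against Cl1. Filled points had an adjusted p under 0.05, and AKR1B10 is the 1 gene beyond 1 on this axis in either clone.

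AKR1C1 has a near-identical neighbour in AKR1C2, which limits how surely reads can be given to 1 of them. AKR1B10 and AKR1B15 are less alike. The first 150 coding bases of AKR1C1 and AKR1C2 are shown because the letters that differ, in capitals, are all that tells their transcripts apart in this stretch. They were taken from the canonical GENCODE transcripts and cross an intron (AKR1C1 within chr10:4963445-4965979, plus strand, and AKR1C2 within chr10:5001616-5003835, minus strand, hg38).
AKR1C1: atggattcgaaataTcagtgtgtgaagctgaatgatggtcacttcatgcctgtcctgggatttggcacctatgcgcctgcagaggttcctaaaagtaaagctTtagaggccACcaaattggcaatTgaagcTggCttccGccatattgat
AKR1C2: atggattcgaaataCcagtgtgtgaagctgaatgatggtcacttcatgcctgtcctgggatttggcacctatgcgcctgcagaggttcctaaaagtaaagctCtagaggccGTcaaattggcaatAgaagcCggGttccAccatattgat
Here 8 of 150 bases differ, and 19 of 969 over the whole coding sequence, an identity of 98%. AKR1C1 shared 91.4% of its coding bases with AKR1C3 and 88.5% with AKR1C4, and AKR1B10 shared 92.8% of its own with AKR1B15. Of all 150-base windows in the canonical AKR1C1 transcript, 7.91% occurred letter for letter in an AKR1C2 transcript, and 16.5% of AKR1C2 windows occurred in AKR1C1. No such window was shared between AKR1B10 and AKR1B15. How reads that match several genes were treated is not given in the sources used here.

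Values of the AKR1C genes lay on both sides of the control. AKR1C2 fell in Cl1 from 1804 and 1933 normalised counts to 1188 and 1426 (log2 fold change -0.51, adjusted p = 0.00827, or -0.39 with an adjusted p of 0.165 without Cl1 replicate 1) and differed little in Cl10, with 1769 and 1664 (-0.12, adjusted p = 0.294). AKR1C3 passed the test in neither clone (-0.26 and -0.20, adjusted p = 0.185 and 0.14), and AKR1C4 had at most 3 counts in a library and was not tested. The share of AKR1C1 in the counts of the 4 AKR1C genes was 70.9% and 71% in the control libraries and between 78.4% and 79.9% in the clones. With the 4 genes summed, the change was 0.13 on the log2 scale in Cl1 (adjusted p = 0.567) and 0.27 in Cl10 (adjusted p = 0.0601), so that the rise called for AKR1C1 in Cl10 was not called for the family. AKR1B15 had 22.9 and 24.7 normalised counts in the control, 182.8 and 213.3 in Cl1 and 149.4 and 207.1 in Cl10, a rise of 3.05 and 2.90 on the log2 scale (adjusted p = 4.06e-06 and 0.000291). It held at most 2.09% of the reads of the AKR1B10 and AKR1B15 pair. Whether its counts are its own transcripts or reads of AKR1B10 was not tested. The rise of AKR1B10 itself was as large with both genes summed (2.46 and 1.89).

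**Figure D3:**
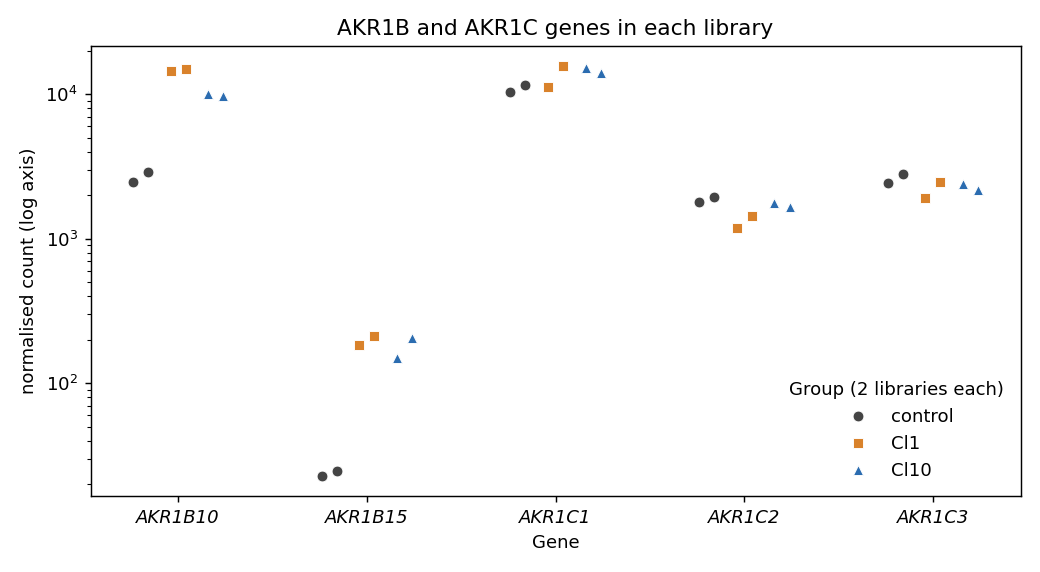
Normalised counts on a log axis for AKR1B10, AKR1B15, AKR1C1, AKR1C2 and AKR1C3, 1 point per library and 2 libraries per group. AKR1B10 and the much rarer AKR1B15 are higher in all clone libraries, whereas the 3 AKR1C genes differ far less between groups.

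Cl10 was then compared with Cl1 directly, which is the test of whether the clones differed, since they share a control. Of the 9 genes, GCLC and GCLM were higher in Cl10 and NQO1 and AKR1B10 lower, where 24.9% of 19818 genes tested were higher and 24.1% lower. None of the 9 differed by more than 1 on the log2 scale, as 4.47% of genes did upwards and 6.28% downwards. The Cl10 libraries lay beyond those of Cl1 for 2 members upwards and 4 downwards, beside 37.4% and 37.3% of all genes. AKR1B10 fell by 32.8% from Cl1 to Cl10 (log2 fold change -0.57, standard error 0.0596, adjusted p = 6.59e-06 by edgeR's quasi-likelihood test). It was lower in both Cl10 libraries than in both Cl1 libraries and passed under each alternative. GCLC was higher in Cl10 by 0.28 (standard error 0.0808, adjusted p = 0.0131) and GCLM by 0.31 (standard error 0.0768, adjusted p = 0.00487). Both lost the test without Cl10 replicate 2 (0.20 with an adjusted p of 0.219, and 0.25 with 0.084) and after the median of the neighbouring genes was subtracted (0.20 with 0.0604, and 0.13 with 0.184). NQO1 was lower in Cl10 (log2 fold change -0.20, standard error 0.0586, adjusted p = 0.0123), without passing when either Cl10 library was left out (adjusted p = 0.139 and 0.257), with scaling by library size alone (adjusted p = 0.0534) or in a single fit over the 6 libraries (adjusted p = 0.104). The difference in TXNRD1 did not pass (-0.11, 95% interval -0.26 to 0.03, adjusted p = 0.163), although without Cl1 replicate 1 it was -0.19 (adjusted p = 8.76e-05). That fit and the others here with 1 Cl1 library take the spread from the Cl10 pair alone. AKR1C1 turned with the Cl1 library used, from -0.10 without Cl1 replicate 1 to 0.36 without Cl1 replicate 2 (adjusted p = 1.58e-14), around a value of 0.12 (adjusted p = 0.398). For the remaining members the differences did not pass, with NFE2L2 at -0.06, SRXN1 at 0.08 and HMOX1 at -0.20. Without Cl1 replicate 1 their values were -0.15, 0.19 and -0.31. Set against the median of its neighbours, -0.54, HMOX1 turned and was higher in Cl10 (0.34, adjusted p = 0.0227).

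Levels of different genes were compared per length, as CPM per kb of the canonical transcript. In the control TXNRD1 (110.8 and 96.7) and NQO1 (89.1 and 100.99) were highest and overlapped each other. NFE2L2 followed with 55.3 and 53.6, apart from its neighbours in the order. AKR1C1 (27.4 and 30.9) and AKR1B10 (26.6 and 31.3) could not be ranked against each other. SRXN1 (9.26 and 8.55) lay above the last 3, GCLC (7.87 and 7.04), HMOX1 (6.50 and 7.65) and GCLM (6.72 and 6.69), which overlapped in part. In the clones AKR1B10 was the highest of the 9, with 155.2 and 161.3 in Cl1 and 108 and 104 in Cl10, above NQO1 at 98.2 and 95.3 in Cl1 and at 85.1 and 82.7 in Cl10. Per length of all annotated exons the control order differed, with NQO1 ahead of TXNRD1, AKR1B10 ahead of AKR1C1, and NFE2L2 at place 6, since its annotated exons together are far longer than its canonical transcript.

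**Figure D4:**
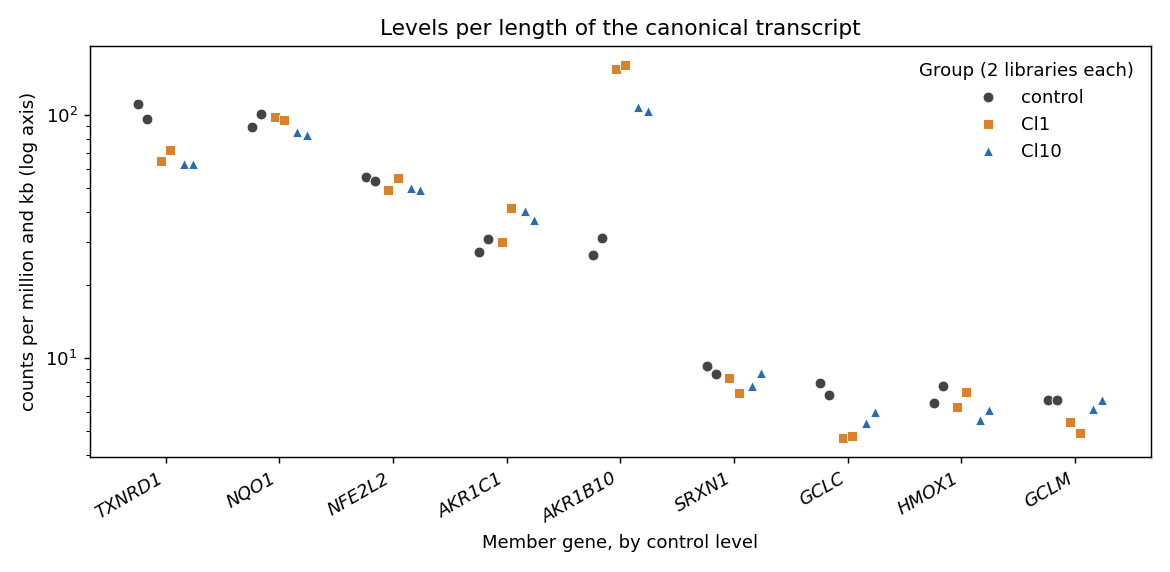
CPM per kb of canonical transcript, on a log axis, for the 9 genes in the order of their control level, 1 point per library. AKR1B10 moves from the middle of the order in the control to the top in Cl1 and Cl10, and TXNRD1 falls below NQO1.

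The machinery that controls NRF2 was read next, from 14 regulator genes. KEAP1, the sensor that holds NRF2 for degradation, had 10988 and 11797 normalised counts in the control, 10213 and 9510 in Cl1 and 12993 and 12700 in Cl10. It passed the test in neither clone against the control (log2 fold change -0.21 and 0.18, adjusted p = 0.228 and 0.124), with Cl1 below and Cl10 above both control libraries, and it was higher in Cl10 than in Cl1 by 0.39 (adjusted p = 0.000206). Without control replicate 1 or 2 the Cl10 value was 0.12 and 0.22 (adjusted p = 0.0169 and 2.42e-06), where the spread came from the Cl10 pair alone. CUL3, the scaffold of the ligase, was at 0.10 and 0.21 (adjusted p = 0.564 and 0.0772), and the Cl10 value was 0.25 and 0.15 without control replicate 1 or 2 (adjusted p = 3e-06 and 0.00566), with the same limit. Set against its neighbours the Cl10 value of CUL3 was 0.26 (adjusted p = 0.0383). BACH1, the repressor that competes with NRF2 for its sites, rose from 2706 and 2061 normalised counts to 3316 and 3245 (Cl1) and to 4111 and 4117 (Cl10). The rise was 0.46 on the log2 scale for Cl1 (adjusted p = 0.0218) and 0.79 for Cl10 (adjusted p = 0.0031) by edgeR's quasi-likelihood test, and it was higher in Cl10 than in Cl1 by 0.33 (adjusted p = 0.000375). The Cl1 rise did not pass without Cl1 replicate 1 or 2 (0.45 and 0.48, adjusted p = 0.118 and 0.0767) or with scaling by library size (0.39, adjusted p = 0.0523).

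The genes of the small MAF proteins, the partners that NRF2 and BACH1 share, did not pass in Cl1 (0.10 for MAFF, -0.28 for MAFG and -0.11 for MAFK). In Cl10 all 3 fell, with log2 fold changes of -0.33 for MAFF, -0.53 for MAFG and -0.98 for MAFK (adjusted p = 0.0244, 0.00621 and 0.000238). Their chromosomal neighbours were also lower in Cl10, with medians over the 50 nearest genes of -0.79 for MAFF, -0.39 for MAFG and -0.77 for MAFK. Relative to these neighbours MAFF lay above by 0.45 (adjusted p = 0.00855), and MAFG and MAFK lay below by -0.14 and -0.21 without passing (adjusted p = 0.313 and 0.0824). The call of MAFF was lost with DESeq2 (adjusted p = 0.0609) and without Cl10 replicate 1 or 2 (-0.329 and -0.335). That of MAFG was lost without Cl10 replicate 1 (-0.51). In fits without a Cl10 library the control pair alone gave the spread. In Cl1 MAFG passed in a fit over 6 libraries (adjusted p = 0.0475), with the replicate numbers of Cl1 crossed as a block (adjusted p = 0.0377) and without control replicate 2 (-0.40, adjusted p = 0.00159).

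Among the other regulators NFE2L3, an NRF2 relative, fell from 5802 and 5812 normalised counts to 4138 and 4020 in Cl1 (log2 fold change -0.51, adjusted p = 0.00475) and to 1489 and 1512 in Cl10 (-1.95, adjusted p = 2.63e-05). Its neighbours had a median of -0.98 in Cl10. The Cl1 fall did not pass without Cl1 replicate 1 or 2 (adjusted p = 0.0745 and 0.102). BACH2, a BACH1 relative of lymphoid cells, was rare, with 46.5 and 59.2 normalised counts in the control, 38.4 and 36.3 in Cl1 and 23.6 and 26.3 in Cl10. Its value of -1.07 in Cl10 passed (adjusted p = 0.0233) but not without control replicate 2, Cl10 replicate 1 or Cl10 replicate 2 (adjusted p = 0.0533, 0.102 and 0.0513), and not with DESeq2 (adjusted p = 0.103). DPP3 rose in Cl1 and Cl10 (0.345 and 0.62, adjusted p = 0.0402 and 0.0014 by edgeR's quasi-likelihood test). SQSTM1 fell in Cl1 (-0.56, adjusted p = 0.00386) but did not pass in Cl10 (0.11, adjusted p = 0.314). It was higher in Cl10 than in Cl1 by 0.67 (adjusted p = 1.62e-06). In all, 2 of the 14 regulators rose and 2 fell in Cl1, beside 12.4% and 12.8% of all genes. In Cl10 3 rose and 6 fell, beside 20.6% and 21.8%.

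A wider set of 58 genes, taken here as NRF2 targets and grouped by function, gave the setting for the 9 genes. Of 49 tested in Cl1, 8 rose, 10 fell and 31 did not pass, with a median log2 fold change of -0.09, where 12.4% of all genes rose and 12.8% fell. Of 50 tested in Cl10, 9 rose, 22 fell and 19 did not pass, with a median of -0.25, where 20.6% of all genes rose and 21.8% fell. The medians over all genes tested were -0.01 in both.

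**Figure D5:**
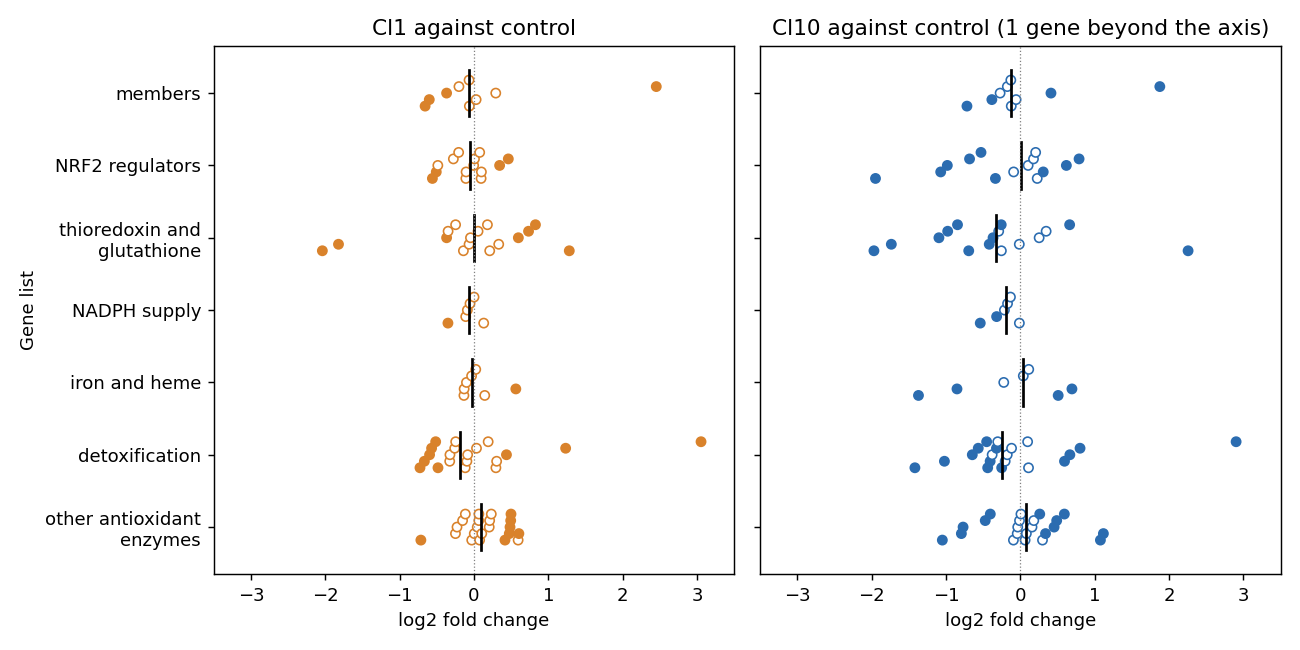
Log2 fold changes of the tested genes of each list (points, filled where the adjusted p was under 0.05) with the list median as a vertical bar, for Cl1 against control on the left and Cl10 against control on the right. Most lists spread to both sides of 0, and 1 gene of the right panel, CES1, is beyond the axis because its control counts were 0.

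Of 20 thioredoxin and glutathione genes, 16 were tested, with 4 higher and 3 lower in Cl1 (12.4% and 12.8% of all genes) and 2 higher and 9 lower in Cl10 (20.6% and 21.8%). The deepest falls were in cystine supply and glutathione turnover. SLC7A11, the cystine importer that feeds glutathione synthesis, fell from 5665 and 3742 normalised counts to 1053 and 1614 in Cl1 (log2 fold change -1.82, adjusted p = 6.35e-05) and to 1382 and 1439 in Cl10 (-1.73, adjusted p = 0.000545). CHAC1, which degrades glutathione, fell from 1832 and 1544 to 339.1 and 486.3 in Cl1 (-2.04, adjusted p = 4.17e-06) and to 400 and 462 in Cl10 (-1.97, adjusted p = 9.96e-05). Both falls passed without any single library. Both genes are well-known targets of ATF4, whose part in these falls was not tested.

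GSTM3, a glutathione transferase, rose from 107.5 and 146.3 normalised counts to 269.1 and 345.7 in Cl1 (log2 fold change 1.28, adjusted p = 0.00075). In Cl10 it rose to 609.4 and 591.3 (2.26, adjusted p = 0.00014). GSR, glutathione reductase, also rose in both clones, from 12595 and 11395 normalised counts in the control. It had 21780 and 20707 in Cl1 (0.83, adjusted p = 0.000495) and 18916 and 18955 in Cl10 (0.66, adjusted p = 0.00133). The neighbours of GSR had medians of -0.156 and -0.16. ABCC2, an exporter of glutathione conjugates, went opposite ways, with 3324 and 3017 in the control, 4171 and 5411 in Cl1 and 1762 and 1760 in Cl10 (0.60, adjusted p = 0.0063, and -0.84, adjusted p = 0.000426). The Cl1 rise of ABCC2 did not pass without Cl1 replicate 2 (0.40, adjusted p = 0.158), while the difference between the clones was -1.44 (adjusted p = 2.39e-07). GSTA4, a transferase for lipid aldehydes, was at 0.33 in Cl1 (adjusted p = 0.0618, or 0.48 and 0.000409 without control replicate 2, and 0.47 and 0.0145 set against its neighbours) and fell in Cl10 (-1.09, adjusted p = 0.00205).

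The 6 genes of NADPH supply, which feeds both arms, gave 0 higher and 1 lower in Cl1 and 0 higher and 2 lower in Cl10. Of 7 iron and heme genes tested, 1 rose in Cl1, and 2 rose and 2 fell in Cl10. Over all genes 12.4% rose and 12.8% fell in Cl1, and 20.6% rose and 21.8% fell in Cl10, so that these few calls are near the background. FTH1 was the iron and heme gene that rose in Cl1, and it was 1 of the 2 that rose in Cl10. Its log2 fold changes were 0.563 and 0.51 (adjusted p = 0.0072 and 0.00335 by edgeR's quasi-likelihood test), where its neighbours had medians of 0.405 and 0.476. Of the same list BLVRA, biliverdin reductase, the step after heme oxygenase, had 3595 and 4512 normalised counts in the control and 4368 and 4581 in Cl1 (log2 fold change 0.15, adjusted p = 0.436). It fell to 1585 and 1541 in Cl10 (-1.37, adjusted p = 0.000251), where its neighbours had a median of -0.49. Leaving out 1 control changed the Cl1 value to -0.01 (replicate 1) or 0.32 (replicate 2, adjusted p = 0.0169).

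Of the 24 detoxification genes, 20 were tested in Cl1 with 3 higher and 6 lower (12.4% and 12.8% of all genes), and 21 in Cl10 with 5 higher and 9 lower (20.6% and 21.8%). Besides AKR1B15 and AKR1C2 above, EPHX1, an epoxide hydrolase, rose from 2233 and 2541 normalised counts to 5590 and 5609 in Cl1 (log2 fold change 1.23, adjusted p = 1.2e-05) and to 4128 and 4174 in Cl10 (0.80, adjusted p = 0.00069). PIR, an iron-binding nuclear protein, had 4649 and 5478 in the control, 3700 and 4368 in Cl1 (-0.33, adjusted p = 0.0785) and 1944 and 1834 in Cl10 (-1.42, adjusted p = 0.00014). The Cl1 value of PIR passed under 4 alternatives that kept all libraries, with adjusted p of 0.0431 with scaling by library size, 0.0401 with no filter, 0.0411 in a fit over 6 libraries and 0.0105 with the crossed replicate block. Without control replicate 1 it was -0.44 (adjusted p = 0.000204). OSGIN1, an oxidative stress growth inhibitor, fell in both (log2 fold change -0.73 and -1.02, adjusted p = 0.00333 and 0.00114). CES1, a carboxylesterase, had raw counts of 0 and 0 in the control, 4 and 3 in Cl1 and 11 and 11 in Cl10. It is among the 5 that rose in Cl10, but its counts were too few for a fold to be given.

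Antioxidant enzymes outside the lists above were taken as a further setting. Of 22 tested, 6 rose and 1 fell in Cl1, beside 12.4% and 12.8% of all genes. The 6 were CAT, PRDX2, PRDX4, PRDX5, TXNRD2 and SESN3, with log2 fold changes between 0.42 and 0.60, and the 1 was SESN2. In Cl10 7 rose and 5 fell, beside 20.6% and 21.8%. SESN2, sestrin 2, fell from 2695 and 2117 normalised counts to 1341 and 1593 in Cl1 (log2 fold change -0.71, adjusted p = 0.00242) and to 1163 and 1159 in Cl10 (-1.05, adjusted p = 0.000801). MSRA, a methionine sulfoxide reductase, read 408.8 and 407.7 in the control, 432.2 and 407.8 in Cl1 (0.04, adjusted p = 0.85, with the sign turned by scaling to library size alone, -0.03) and 940.7 and 824.7 in Cl10 (1.12, adjusted p = 0.000387). GPX3, the plasma glutathione peroxidase, was rare, with 51.6 and 33.3 in the control, 64.1 and 65.6 in Cl1 (0.59, adjusted p = 0.168) and 99.3 and 81.4 in Cl10 (1.08, adjusted p = 0.0188, or 0.93 and 0.0578 without Cl10 replicate 1).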

How the data were processed

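RNA from A253 cells was measured in 6 libraries, 2 each of the control, Cl1 and Cl10, grouped by GEO's labels. The deposited values are raw counts per gene for 58735 genes. The authors aligned reads to hg38 with HISAT2 and, per the study's methods, counted them with HTSeq, and the submitters' processing notes also name StringTie and DESeq. The labels and the study's methods name different Illumina library kits. The annotation, the strand setting and the rule for multi-mapped reads are not given in the sources used here. The SOX2 experiment (4 samples) was not analysed here.

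Counts were tested with edgeR 4.0.16 in R 4.3.3 (filterByExpr, TMM, estimateDisp, glmQLFit, glmQLFTest; two-sided, Benjamini-Hochberg over all genes tested), each comparison with its own 4 libraries. Genes passed at an adjusted p under 0.05, and standard errors were derived from F and the unshrunk log2 fold change. The fit was checked on counts simulated as independent libraries with the spread estimated here. That check does not test whether the libraries of a group are technical or differ in spread between groups. The members and gene lists were chosen with earlier results of these data known, and no list was tested as a set. Named genes are the members, their close copies, DUSP1, KEAP1, CUL3, BACH1 and the small MAFs. From each other list, up to 6 were added that passed with a change beyond 1 on the log2 scale in any comparison. FTH1, GSR, DPP3, SQSTM1, the cell type markers and the other antioxidant enzymes that rose in Cl1 are given besides. These are not in the counts of alternatives. Positions come from GENCODE release 44, which held 58207 of the identifiers and 99.9% of the counts. The symbol SOD2 had 2 identifiers, of which the more abundant was used. Alternatives were DESeq2 1.42.0, its size factors, scaling by library size, other filters, a fit over 6 libraries, the replicate number as a block, leaving out each library, summed copies, and each gene's value less the median of its 50 neighbours. In the last of these the gene kept its own standard error and the median was treated as known without error. A crossed block and exon-union lengths were added after seeing the data. Totals of 47016495 to 70986593 counts set the counting precision.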

Additional observations from a re-analysis of the deposited data

Results flagged for a closer look

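For 4 of the 9 genes the difference between the clones passed the test of that difference itself, Cl10 against Cl1 by edgeR's quasi-likelihood test, beside 49% of all genes in either direction. The log2 fold change was -0.57 for AKR1B10 (adjusted p = 6.59e-06), 0.31 for GCLM (adjusted p = 0.00487), 0.28 for GCLC (adjusted p = 0.0131) and -0.20 for NQO1 (adjusted p = 0.0123). AKR1B10 was lower in both Cl10 libraries than in both Cl1 libraries but above the control in all 4. GCLC was below the control in both clones and lowest in Cl1, GCLM was below the control in Cl1 only, and NQO1 lay within the span of the control in Cl1 and below it in Cl10. The range over the alternatives of the adjusted p was 8.4e-17 to 0.000961 for AKR1B10, 0.000433 to 0.184 for GCLM, 0.00511 to 0.0604 for GCLC and 0.00193 to 0.104 for NQO1, not counting fits that left out a library. With 2 libraries per group no group could be tested for outlying libraries.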

How the results depend on the processing

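Over the 9 genes and 3 comparisons, alternatives other than leaving out a library left 214 values with their direction and call, made 3 pass and 6 fail, and turned 8. Leaving out a library left 77, made 11 pass and 11 fail, and turned 9. For the other named genes the numbers were 584, 11, 13 and 5, and 251, 15, 21 and 7 with a library left out. With the median of the 50 nearest genes subtracted, NFE2L2 was 0.13 in Cl1 and 0.063 in Cl10, NQO1 was -0.07 in Cl1, HMOX1 was 0.33 in Cl10 against control and 0.34 against Cl1, SRXN1 was -0.10 and SLC7A11 -0.075 in Cl10 against Cl1, MAFF was 0.45 in Cl10 against control and 0.29 against Cl1, and MAFG was 0.19 in Cl10 against Cl1. Of these turned values, those of HMOX1, MAFF and MAFG in Cl10 against Cl1 passed (adjusted p = 0.0227, 0.0126 and 0.0138). That of MAFF in Cl10 against control passed as well (adjusted p = 0.00855). With scaling by library size only, NQO1 was -0.04 and MSRA -0.027 in Cl1, and NFE2L2 was 0.007 in Cl10 against Cl1. For results turned by leaving out 1 library the ranges in Cl1 against control were -0.14 to 0.016 for NFE2L2, -0.062 to 0.12 for NQO1, -0.18 to 0.055 for HMOX1 and -0.013 to 0.32 for BLVRA, and in Cl10 against control -0.12 to 0.012 for GCLM. In Cl10 against Cl1 they were -0.15 to 0.007 for NFE2L2, -0.03 to 0.19 for SRXN1, -0.10 to 0.36 for AKR1C1, -0.12 to 0.25 for AKR1C3, -0.39 to 0.077 for AKR1B15, -0.18 to 0.34 for CHAC1 and -0.20 to 0.41 for SLC7A11. The cause was not tested.

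The counts of members that rose and fell, main 1 and 3 in Cl1, 2 and 2 in Cl10 and 2 and 2 in Cl10 against Cl1, ranged without 1 library from 1 to 2 and from 1 to 3, from 1 to 2 and from 1 to 5, and from 0 to 3 and from 1 to 5. With the neighbourhood subtracted 4 fell in Cl10, and 1 rose in Cl10 against Cl1. In that comparison 1 fell with library size only and 1 with 1 fit over the 6 libraries. Requiring an absolute log2 fold change above 1 left 0 lower in Cl1, 1 higher and 0 lower in Cl10, and 0 and 0 between the clones, which follows from the smaller changes. Over all genes the counts called with that threshold were 861 higher and 659 lower in Cl1, 1188 and 1479 in Cl10, and 886 and 1245 between the clones, and without it 2489 and 2575, 4103 and 4336, and 4932 and 4774.

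Deviations of same-numbered libraries correlated at -0.13 between control and Cl1, -0.09 between control and Cl10 and 0.01 between the clones. No strong shared effect of the replicate number was thus seen. These values cannot tell whether same-numbered libraries were prepared together. With the replicate number as a block 904 genes were called higher and 683 lower in Cl1, 1287 and 1570 in Cl10, and 894 and 1269 between the clones, and the member counts were unchanged at 1 and 3, 2 and 2, and 2 and 2. With the block crossed in Cl1, 980 were called higher and 725 lower, and 2 members rose. With 2 libraries per group, differences within the intervals given could not be resolved.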
